A study of Mus musculus with 7 samples.

Results

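Described here are 10 genes that set the pace of the cell cycle, namely the D-type cyclins (Ccnd1, Ccnd2, Ccnd3), inhibitors of the cyclin-dependent kinases (Cdkn1a, Cdkn1b, Cdkn2c), the transcription factor gene Myc and the stress genes Gadd45a, Gadd45b and Gadd45g, out of 18193 genes measured. They were chosen by name, with earlier results of these data known, and all 10 were measured, by 24 probe sets in all. A probe set is the group of short probes on an Affymetrix array that reads 1 transcript, and the one with the highest mean over the arrays stands for its gene. The samples were macrophages grown from mouse bone marrow, with 1 culture and 1 array per group. They were kept for 24 h with MDP, with Pam3CSK4 or without ligand (naive), and then for 3 h with a second ligand or none. MDP, muramyl dipeptide, is a fragment of bacterial peptidoglycan sensed inside the cell through Nod2, and Pam3CSK4 is a synthetic lipopeptide sensed at the cell surface by Tlr2 with Tlr1. The labels give 10 mg/ml for MDP and 1 mg/ml for Pam3CSK4 at both steps, and whether this unit was meant, and not micrograms per ml, could not be checked. The groups were MDP then MDP, Pam3CSK4 then MDP, naive with MDP, Pam3CSK4 then Pam3CSK4, MDP then Pam3CSK4, naive with Pam3CSK4, and naive unstimulated. Mouse strain, sex and age are not given in the sources used here, and each pretreated group also had a second ligand. The study asked which genes either ligand induces in naive macrophages, and which of them stand lower in macrophages that had met a ligand before.

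D-type cyclins bind Cdk4 and Cdk6 and start the phosphorylation of the retinoblastoma protein, which lets a cell leave G1. Cdkn1a (p21) and Cdkn1b (p27) restrain cyclin-dependent kinases broadly, while Cdkn2c (p18) binds Cdk4 and Cdk6. Myc is a transcription factor that drives ribosome production and growth. The Gadd45 proteins are small stress-induced partners of kinases, including the MAP kinase kinase kinase Map3k4, and of cell cycle proteins such as Pcna and p21. Macrophages grown from bone marrow divide in response to colony-stimulating factor 1, which raises D cyclins and Myc, and bacterial ligands are known to stop this division.

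Values are log2 expression after RMA, and a difference of 1 is 2-fold. With 1 array per group no spread between cultures could be estimated, so no p-value is given and neighbouring levels cannot be separated by replicate error. Differences of at least 2-fold are counted and set beside the share of all 18193 genes past the same line. All 10 genes lay above the median of every array with the probe set used. Their range over the 7 arrays had a median of 1.47, against 0.39 over all genes, and ran from 0.78 (Cdkn1b) to 3.12 (Gadd45b). The 2 medians are not matched for level, as all genes include some below the array median. All 9 macrophage markers lay above the array median on all 7 arrays, with list means from 12.62 to 13.01. None of the 5 measured mast and erythroid markers was above it on any array. Of the neutrophil markers 5 of 6 were above it on all 7 arrays, with list means from 7.24 to 7.66. On all 7 arrays so were 3 of 6 T and NK cell markers (5.74 to 5.90) and 3 of 5 B cell markers (6.36 to 6.81). The same held for 2 of 5 stromal markers (5.43 to 5.92) and 1 of 5 dendritic cell markers (5.25 to 5.50). On at least 1 array 4 of 6 T and NK cell, 4 of 5 B cell and 3 of 5 dendritic cell markers were above it, the neutrophil and stromal counts being the same. Single markers differed from unstimulated by 2-fold where the list means hide it. On both arrays of cells pretreated with Pam3CSK4 the macrophage markers Itgam (1.27 with either second ligand) and Fcgr1 (1.04 with MDP second and 1.13 with Pam3CSK4 second) and the stromal marker Dcn (1.87 and 1.56) were higher, and the macrophage marker Mrc1 (-1.73 and -1.72) was lower. These are the arrays on which Gadd45a and Myc were lowest and Ccnd3 highest. Mertk, a macrophage receptor for dying cells, was lower in MDP then Pam3CSK4 (-1.79), naive cells with Pam3CSK4 (-2.29) and naive cells with MDP (-1.18). The B cell marker Ighm was lower on all 4 pretreated arrays (-2.77 to -1.96). Of the neutrophil markers Ltf was lower in Pam3CSK4 then Pam3CSK4 (-1.16) and Camp higher in MDP then Pam3CSK4. The part of these markers in the results was not tested. Fewer dividing cells and less RNA per cell cannot be told apart in such bulk samples.

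The Gadd45 genes had the 3 largest ranges of the group and differed from each other in direction. The 250 bases before the annotated start of each are shown because these related genes went different ways under the same ligand. They come from RefSeq (GRCm38.p6), written 5′ to 3′ along the gene, at chr6:67037408-67037657 on the minus strand, chr10:80929841-80930090 on the plus strand and chr13:51846425-51846674 on the plus strand. Capitals mark the TATA box letters TATAAA, the E-box letters CACGTG and the letters CCAAT.

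Gadd45a: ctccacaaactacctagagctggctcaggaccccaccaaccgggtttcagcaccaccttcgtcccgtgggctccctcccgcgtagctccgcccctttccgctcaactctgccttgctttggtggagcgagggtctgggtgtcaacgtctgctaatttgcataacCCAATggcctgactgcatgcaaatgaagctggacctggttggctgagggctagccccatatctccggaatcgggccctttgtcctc
Gadd45b: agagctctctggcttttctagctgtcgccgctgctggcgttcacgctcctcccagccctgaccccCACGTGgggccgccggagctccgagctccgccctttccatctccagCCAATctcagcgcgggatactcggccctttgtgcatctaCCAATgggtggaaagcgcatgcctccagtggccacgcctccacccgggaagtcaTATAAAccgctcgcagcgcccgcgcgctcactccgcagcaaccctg
Gadd45g: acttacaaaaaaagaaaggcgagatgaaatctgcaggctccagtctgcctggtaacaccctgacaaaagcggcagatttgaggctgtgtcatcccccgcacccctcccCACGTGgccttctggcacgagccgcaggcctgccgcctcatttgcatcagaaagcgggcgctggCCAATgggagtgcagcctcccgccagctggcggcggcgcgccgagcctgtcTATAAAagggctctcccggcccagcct

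Searched on both strands, TATAAA and CACGTG each occurred in the windows of Gadd45b and Gadd45g and in neither case in that of Gadd45a, while CCAAT occurred in all 3. Of 32851 such promoter windows 12.4% hold TATAAA, 6.02% CACGTG and 33.8% CCAAT. An NF-kB motif (1.41% of windows), the AP-1 letters TGANTCA (6.75%) and the CRE letters TGACGTCA (1.55%) did not occur in these 3 windows. The matches do not overlap, and a match of letters is a description of the window.

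**Figure D1:**
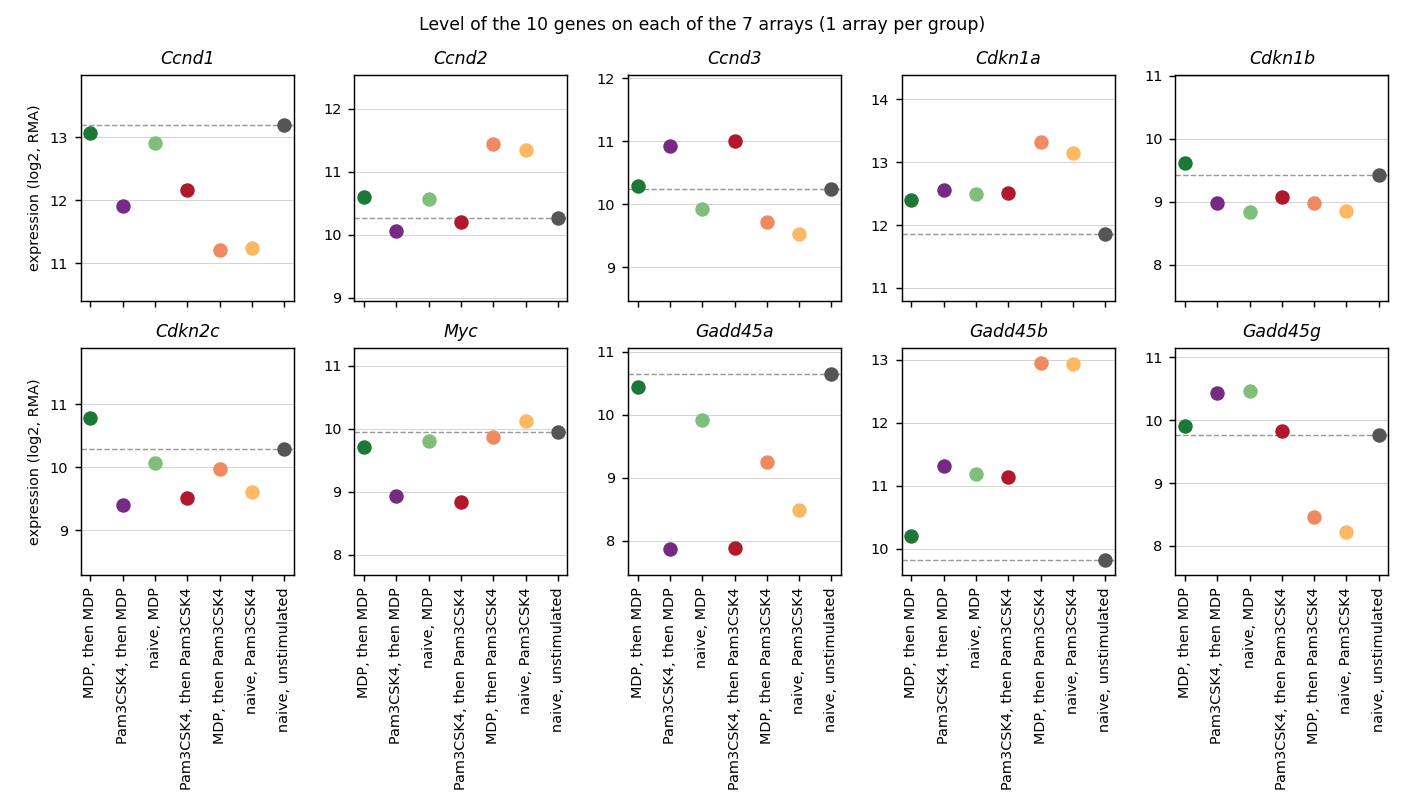
Level of each of the 10 genes on each array (log2 expression, RMA), in panels of equal height, with 1 point per array and a dashed line at the unstimulated level. Gadd45b stands at 12.95 and 12.94 on the MDP then Pam3CSK4 and naive Pam3CSK4 arrays and at 9.82 unstimulated, and Gadd45a is lowest, at 7.87 and 7.88, on the arrays of cells pretreated with Pam3CSK4.

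Gadd45b, which can promote survival of stressed cells, was higher than unstimulated on all 6 stimulated arrays. Its level was 10.20 in MDP then MDP, 11.30 in Pam3CSK4 then MDP, 11.18 in naive cells with MDP, 11.13 in Pam3CSK4 then Pam3CSK4, 12.95 in MDP then Pam3CSK4, 12.94 in naive cells with Pam3CSK4, and 9.82 unstimulated. The levels thus fell into a high pair, a middle group of 3 and a low pair made up of the unstimulated array and the one that met MDP at both steps. Against unstimulated it was 8.65-fold higher in naive cells with Pam3CSK4, rank 44 of 18193 genes, and 2.56-fold higher in naive cells with MDP, rank 51.

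Gadd45a, the member classically induced by DNA damage through p53, went the other way. It stood at 10.43 in MDP then MDP, 7.87 in Pam3CSK4 then MDP, 9.91 in naive cells with MDP, 7.88 in Pam3CSK4 then Pam3CSK4, 9.26 in MDP then Pam3CSK4, 8.49 in naive cells with Pam3CSK4, and 10.65 unstimulated. Every stimulated array was below the unstimulated one, and the 2 arrays of cells pretreated with Pam3CSK4 were lowest whichever ligand came second. There it was 6.86-fold (second ligand MDP) and 6.81-fold (second ligand Pam3CSK4) lower than unstimulated, with only 13 and 12 of the 18193 genes lower still.

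Gadd45g, which like its relatives can restrain division, separated a first exposure to Pam3CSK4 from the other arrays. Its level was 9.91 in MDP then MDP, 10.42 in Pam3CSK4 then MDP, 10.46 in naive cells with MDP, 9.83 in Pam3CSK4 then Pam3CSK4, 8.46 in MDP then Pam3CSK4, 8.23 in naive cells with Pam3CSK4, and 9.76 unstimulated. Only cells meeting Pam3CSK4 for the first time were below unstimulated, and MDP left it at or above that level on all 3 arrays that had MDP second. Between naive cells with Pam3CSK4 and naive cells with MDP it differed by -2.24, rank 7 from the lowest of all genes in that comparison.

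Ccnd1, the D cyclin most closely tied to growth factor signals, was lower on every stimulated array than on the unstimulated one. It read 13.07 in MDP then MDP, 11.91 in Pam3CSK4 then MDP, 12.90 in naive cells with MDP, 12.17 in Pam3CSK4 then Pam3CSK4, 11.21 in MDP then Pam3CSK4, 11.25 in naive cells with Pam3CSK4, and 13.19 unstimulated. The arrays with MDP and no Pam3CSK4 stayed within 0.29 of unstimulated, and each array with Pam3CSK4 at either step was at least 2-fold below it. All 3 probe sets of Ccnd1 gave nearly the same profile, with -1.94, -1.86 and -1.95 in naive cells with Pam3CSK4.

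Ccnd2, its close relative, stood on the other side of unstimulated from Ccnd1 where Pam3CSK4 was new to the cells. The levels were 10.61 in MDP then MDP, 10.06 in Pam3CSK4 then MDP, 10.56 in naive cells with MDP, 10.20 in Pam3CSK4 then Pam3CSK4, 11.44 in MDP then Pam3CSK4, 11.34 in naive cells with Pam3CSK4, and 10.26 unstimulated. The 2 arrays of a first exposure to Pam3CSK4 stood highest, and those of cells pretreated with Pam3CSK4 were just below unstimulated. In naive cells with Pam3CSK4 the difference was 1.08, and the 6 other probe sets read 0.83 to 1.13. The 2 highest of these 6, at 1.13 and 1.08, had an unstimulated value below its array median. They are differences as read and not bounds. The 2-fold call was narrow, with 0.99 for the mean of all 7 and 0.95 for those above the array median throughout.

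Ccnd3 was the D cyclin that stood higher after Pam3CSK4 pretreatment. It was at 10.29 in MDP then MDP, 10.92 in Pam3CSK4 then MDP, 9.92 in naive cells with MDP, 11.00 in Pam3CSK4 then Pam3CSK4, 9.72 in MDP then Pam3CSK4, 9.52 in naive cells with Pam3CSK4, and 10.25 unstimulated. Both arrays of cells pretreated with Pam3CSK4 were above all others. The pattern belongs to 1 of 3 probe sets. Of the others, one spanned only 0.30 over the 7 arrays and the dimmest lay below the array median on all of them.

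Among the kinase inhibitors Cdkn1a, the p21 gene and a target of p53, was higher than unstimulated on all 6 stimulated arrays. Its level was 12.40 in MDP then MDP, 12.56 in Pam3CSK4 then MDP, 12.50 in naive cells with MDP, 12.51 in Pam3CSK4 then Pam3CSK4, 13.32 in MDP then Pam3CSK4, 13.14 in naive cells with Pam3CSK4, and 11.86 unstimulated. A first exposure to Pam3CSK4 gave the highest levels, and the other 4 stimulated arrays lay within a narrow band. Its second probe set had the same order of the 2 highest and the lowest arrays, with 1.5 over unstimulated in naive cells with Pam3CSK4, beside 1.27.

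Cdkn1b, which holds resting cells out of the cycle, varied least. It read 9.61 in MDP then MDP, 8.99 in Pam3CSK4 then MDP, 8.83 in naive cells with MDP, 9.07 in Pam3CSK4 then Pam3CSK4, 8.99 in MDP then Pam3CSK4, 8.86 in naive cells with Pam3CSK4, and 9.42 unstimulated. No pair of arrays differed 2-fold, and only MDP then MDP stood above unstimulated. Its other probe set was below the array median on all arrays.

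Cdkn2c, the p18 inhibitor of Cdk4 and Cdk6, had the same highest array. Its level was 10.78 in MDP then MDP, 9.41 in Pam3CSK4 then MDP, 10.07 in naive cells with MDP, 9.51 in Pam3CSK4 then Pam3CSK4, 9.98 in MDP then Pam3CSK4, 9.60 in naive cells with Pam3CSK4, and 10.29 unstimulated. It was 2.59-fold lower in Pam3CSK4 then MDP than in MDP then MDP, and no array differed 2-fold from unstimulated.

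Myc stayed close to unstimulated except after Pam3CSK4 pretreatment. The levels were 9.71 in MDP then MDP, 8.94 in Pam3CSK4 then MDP, 9.81 in naive cells with MDP, 8.83 in Pam3CSK4 then Pam3CSK4, 9.87 in MDP then Pam3CSK4, 10.13 in naive cells with Pam3CSK4, and 9.94 unstimulated. The 2 arrays of cells pretreated with Pam3CSK4 were below the other 5. Against unstimulated, Myc was 2.01-fold lower with MDP second and 2.16-fold lower with Pam3CSK4 second. The call with MDP second was narrow, with -0.96 when arrays were centred on housekeeping genes, -0.90 with cyclic loess and -0.96 with 32 added to the linear values.

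**Figure D2:**
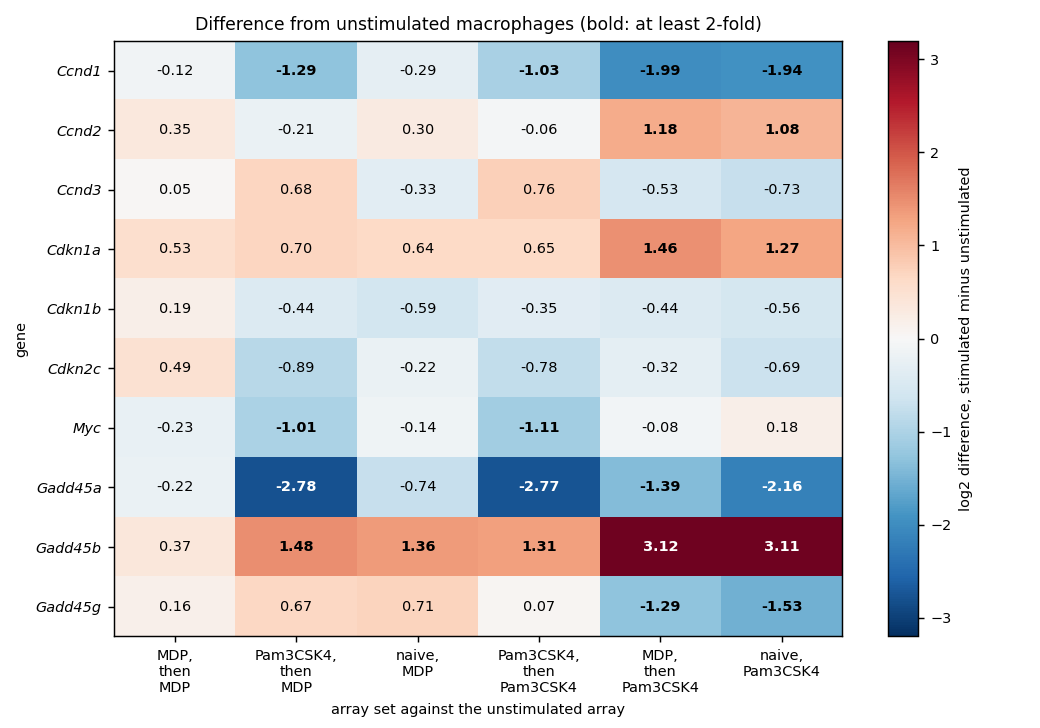
Log2 difference of each of the 10 genes between each stimulated array and the unstimulated array, which all 6 columns share, with values of at least 2-fold in bold. The column of MDP then MDP holds no bold value, and those of MDP then Pam3CSK4 and naive Pam3CSK4 hold 6 each.

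Set against unstimulated macrophages, a first exposure to Pam3CSK4 gave the most 2-fold differences and MDP the fewest. In naive cells with MDP 1 of the 10 genes, Gadd45b, was at least 2-fold higher (0.583% of all genes were) and 0 were 2-fold lower (0.17%). Gadd45a (-0.74), Gadd45g (0.71), Cdkn1a (0.64) and Cdkn1b (-0.59) were the next furthest from unstimulated, and Myc (-0.14) the closest. In naive cells with Pam3CSK4 Gadd45b, Cdkn1a and Ccnd2 were 2-fold higher (2.27% of all genes) and Gadd45a, Ccnd1 and Gadd45g 2-fold lower (1.95%). At the 3-fold line that the study used for induction Gadd45b alone was higher (1.28% of all genes), and Gadd45a (4.46-fold) and Ccnd1 (3.85-fold) were lower (0.605%).

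The pretreated arrays were set against unstimulated in the same way. In MDP then MDP 0 of the 10 genes were 2-fold higher (0.39% of all genes) and 0 lower (0.0385%), Cdkn1a (0.53) and Cdkn2c (0.49) being furthest. In MDP then Pam3CSK4 the same 3 genes as in naive cells with Pam3CSK4 were higher (3.03%) and the same 3 lower (1.8%). In Pam3CSK4 then MDP Gadd45b was higher (2.78%), and Ccnd1, Myc and Gadd45a lower (2.59%). In Pam3CSK4 then Pam3CSK4 the calls fell on those genes too, with 1 higher (2.66%) and 3 lower (2.29%), though Ccnd1 was at -0.92 with cyclic loess, beside -1.03. That last array also read higher in the 3 control probe sets for 18S ribosomal RNA. Their median stood 1.70 over unstimulated there and 0.28 to 0.48 on the 5 other stimulated arrays, and their part in its differences was not tested. The array of Pam3CSK4 then MDP, where that median was 0.48, had the same 4 calls. These 6 comparisons share the unstimulated array.

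**Figure D3:**
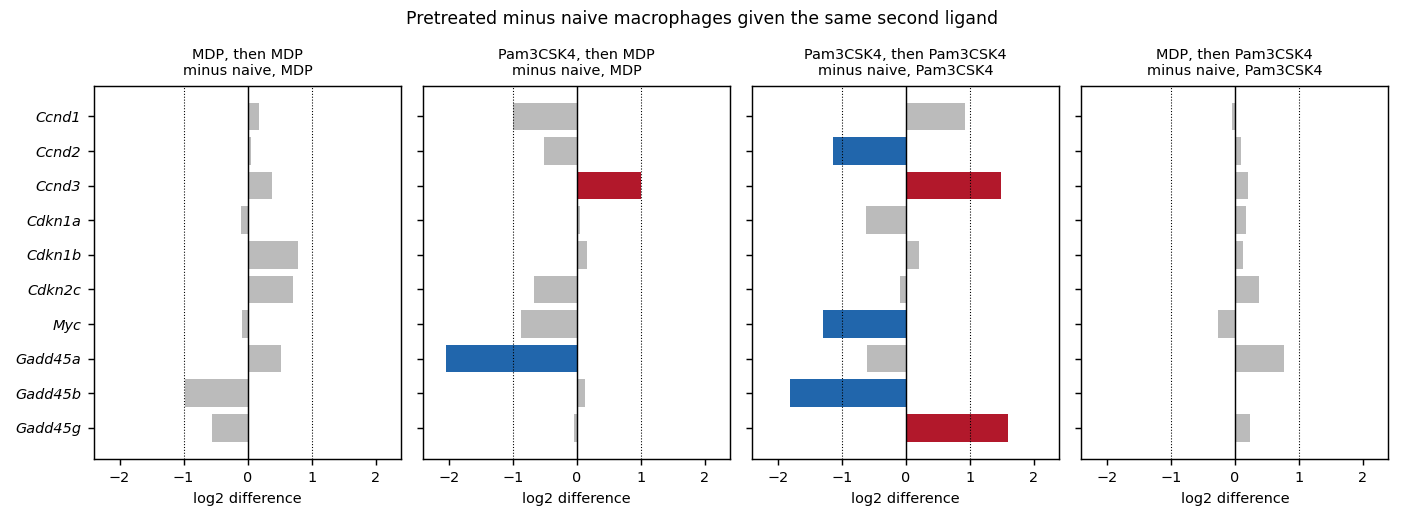
Log2 difference of the 10 genes, pretreated minus naive macrophages given the same second ligand, with dotted lines at 2-fold and coloured bars (red higher, blue lower) past them. In the panels of MDP pretreatment no bar is past 2-fold, and in that of Pam3CSK4 then Pam3CSK4 5 are.

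The comparison of pretreated with naive cells asks which responses were lower on a second exposure, for which the study used 2-fold. For Pam3CSK4 given after Pam3CSK4, against a first exposure, Gadd45b (-1.80), Myc (-1.29) and Ccnd2 (-1.14) were 2-fold lower (2.3% of all genes) and Gadd45g (1.6) and Ccnd3 (1.48) 2-fold higher (2.41%). Gadd45b was still 2.48-fold over unstimulated after both exposures, while Ccnd2 (-0.06) and Gadd45g (0.07) stood at the unstimulated level and Cdkn1a (0.65) between that level and that of a first exposure. Ccnd1 was 1.89-fold above its level in naive cells with Pam3CSK4 and remained below unstimulated. Gadd45a stayed further from unstimulated than after a first exposure, at -0.61 against naive cells with Pam3CSK4. Averaging the probe sets of Ccnd3 gave 0.53, or 0.78 over those above the array median throughout.

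For MDP given after MDP, 0 of the 10 genes were 2-fold lower (0.291% of all genes) and 0 higher (0.385%). Gadd45b, the one member that stood 2-fold over unstimulated in naive cells with MDP, was at -0.98 and rank 60 from the lowest of 18193 genes, just short of the line, and at -1.001 with cyclic loess it was past it. Its 2 other probe sets were at -1.08 and -0.37. Cdkn1b (0.78), Cdkn2c (0.71) and Gadd45a (0.52) were higher than in naive cells with MDP, and Gadd45g (-0.55) lower.

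Cross-pretreatment was not symmetrical in these values. For MDP given after Pam3CSK4, against naive cells with MDP, Gadd45a was 4.11-fold lower (1.71% of all genes were 2-fold lower) and Ccnd3 2.01-fold higher (2.14%). Ccnd1 lay just short of the line (-0.998), and past it (-1.05) when its probe sets were averaged. Ccnd3 read 0.98 with 32 added to the linear values, 0.28 averaged over its probe sets and 0.52 over those above the array median throughout. Myc (-0.87) and Cdkn2c (-0.66) were next, and Gadd45b (0.13), Cdkn1a (0.06) and Gadd45g (-0.04) stood at the level of a first exposure to MDP. For Pam3CSK4 given after MDP, against naive cells with Pam3CSK4, 0 of the 10 genes were 2-fold higher (0.297%) and 0 lower (0.022%), Gadd45a (0.76) being furthest and Gadd45b at 0.01. Whether the pretreatments differ in effect could not be tested with 1 array per group.

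Between second ligands, the same 4 genes were past 2-fold in naive and in MDP-pretreated cells. In naive cells Pam3CSK4 left Gadd45b 3.38-fold higher than MDP did (1.4% of all genes 2-fold higher), and Gadd45g (4.71-fold), Ccnd1 (3.15-fold) and Gadd45a (2.67-fold) were lower (0.709%). After MDP pretreatment Gadd45b was 6.73-fold higher (2.41%), and Ccnd1 (3.65-fold), Gadd45g (2.73-fold) and Gadd45a (2.26-fold) lower (1.42%). Cdkn1a was at 0.92 there, or 1.08 averaged over its probe sets. After Pam3CSK4 pretreatment 0 of the 10 genes differed 2-fold between Pam3CSK4 and MDP as second ligand, Gadd45g (-0.60) being furthest. In that comparison 1 gene of 18193 did (0.0055%), and the median size of the difference over all genes was 0.07, the smallest of the 21 pairs of arrays.

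Between pretreatments, with MDP second, Gadd45b was 2.15-fold higher after Pam3CSK4 than after MDP (1.91% of all genes), and Gadd45a (5.91-fold), Cdkn2c (2.59-fold) and Ccnd1 (2.25-fold) lower (2.06%). With Pam3CSK4 second, Gadd45g (1.37) and Ccnd3 (1.28) were higher after Pam3CSK4 than after MDP (1.34%), and Gadd45b (-1.82), Gadd45a (-1.37), Ccnd2 (-1.24) and Myc (-1.03) lower (2.41%). Gadd45b thus stood on opposite sides under the 2 second ligands, and that difference was not tested. Myc was short of the line (-0.98) with 32 added to the linear values, and Ccnd3 read 0.45 averaged over its probe sets and 0.64 over those above the array median throughout.

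**Figure D4:**
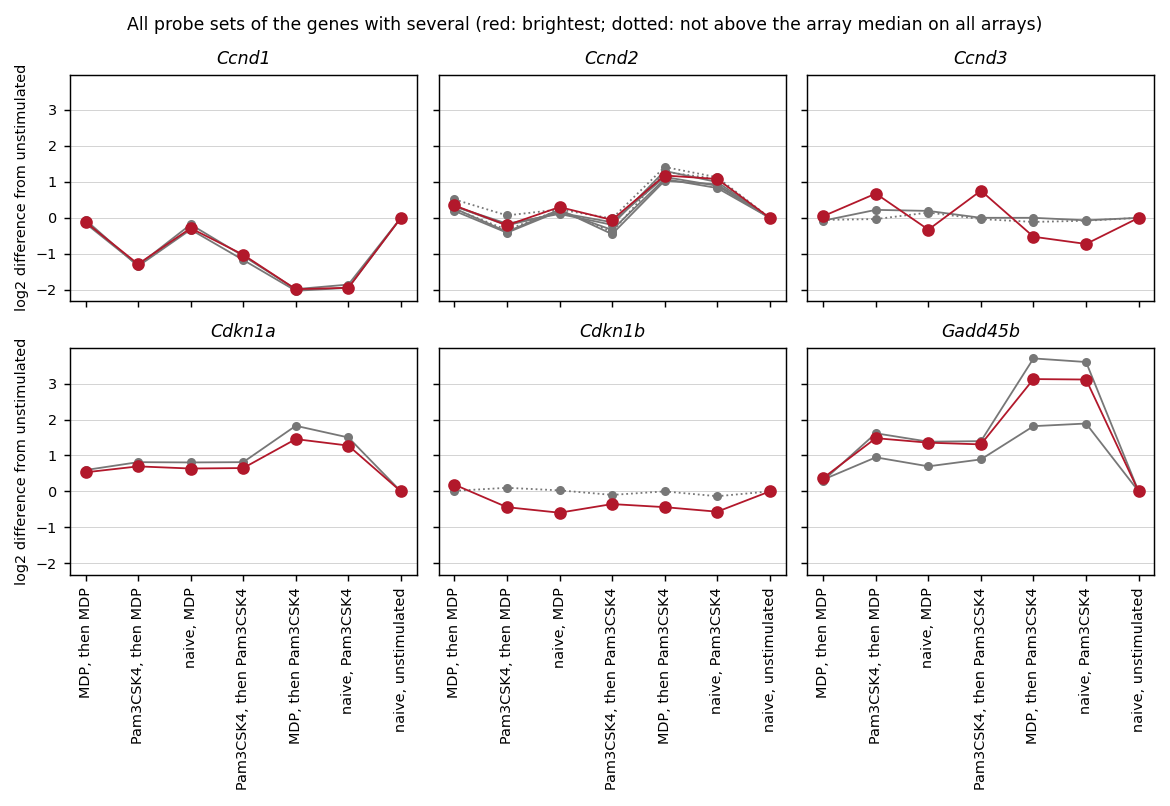
Log2 difference from the unstimulated array of every probe set of the 6 genes that have several (red the brightest, grey the others, dotted those not above the array median on all arrays). The 3 Ccnd1 lines nearly coincide, the 3 Gadd45b lines keep their shape at different heights (1.89 to 3.60 in naive cells with Pam3CSK4), and in Ccnd3 and Cdkn1b the other lines stay near 0.

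Over the 7 arrays, the genes most like Gadd45b were the NF-kB signalling scaffold Malt1 (Pearson r 0.996), the AP-1 subunit Junb (0.996) and the costimulatory receptor Cd40 (0.995). Gadd45a was most like Cgnl1 (0.986), a junction protein gene, N4bp2l1 (0.986) and Qpct (0.986), an enzyme that forms pyroglutamate. Gadd45g was most like the kinase gene Nuak1 (0.936), Flrt2 (0.933) and the interleukin-21 receptor Il21r (0.932). These are the highest of 1906 genes with a range of at least 1, all points share the 7 arrays, and they describe shape only.

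Other genes of the cell cycle were read from lists. In MDP then MDP all 22 measured genes of S phase and mitosis were above unstimulated (median 0.49, all genes -0.01) with 0 past 2-fold. Against naive cells with MDP all 22 were higher (median 0.64). Rrm2 (1.04), a ribonucleotide reductase subunit, and the helicase subunit Mcm5 (1.01) were past 2-fold there (0.385% of all genes 2-fold higher). MDP then MDP is also the array on which Cdkn1b and Cdkn2c were highest. In naive cells with Pam3CSK4 the median was -0.45 with 2 of 22 above unstimulated and 0 past 2-fold. The other array of a first exposure to Pam3CSK4, MDP then Pam3CSK4, had a median of 0.07 with 12 of 22 above unstimulated, and 20 of 22 were higher there than in naive cells with Pam3CSK4 (median 0.51, 0 past 2-fold). After Pam3CSK4 pretreatment 6 of 22 were 2-fold below unstimulated with MDP second (median -0.22, 2.59% of all genes 2-fold lower) and 6 with Pam3CSK4 second (median -0.19, 2.29%). The counts share 5 genes, with Mki67 in the first and Ccna2 in the second, and were led by cyclin B2, Ccnb2 (-2.54 with MDP second and -2.57 with Pam3CSK4 second), and Cdc20 (-1.82 and -1.88), an activator of the anaphase-promoting complex. Against naive cells given the same second ligand, 6 of 22 were 2-fold lower with MDP second (median -0.02, 1.71% of all genes 2-fold lower). With Pam3CSK4 second 12 of 22 were higher (median 0.20), Rrm2 (1.67) past 2-fold (2.41% of all genes). There 4 were 2-fold lower (2.3%), Ccnb2 (-2.22) and Cdc20 (-1.67) furthest.

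**Figure D5:**
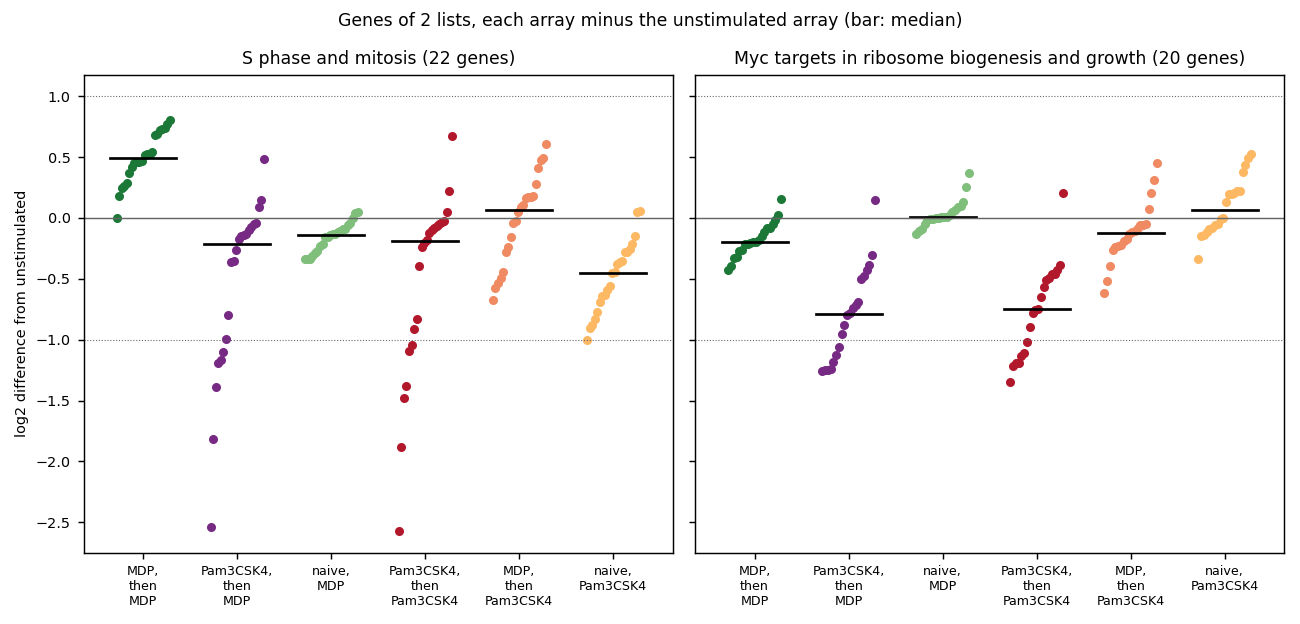
Log2 difference from the unstimulated array for each gene of S phase and mitosis (22 genes) and of Myc targets in ribosome biogenesis and growth (20 genes), 1 point per gene, with a bar at the median and dotted lines at 2-fold. The medians of the Myc targets are -0.79 in Pam3CSK4 then MDP and -0.75 in Pam3CSK4 then Pam3CSK4, and all points of S phase and mitosis lie above 0 in MDP then MDP.

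Myc targets in ribosome biogenesis and growth were lowest on the 2 arrays where Myc was lowest, and a link between them was not tested. In Pam3CSK4 then MDP 7 of 20 were 2-fold below unstimulated (median -0.79, all genes 0.00), beside 2.59% of all genes. In Pam3CSK4 then Pam3CSK4 also 7 were (median -0.75, all genes 0.01), beside 2.29%. Against the matching naive arrays 7 (1.71% of all genes) and 10 (2.3%) were 2-fold lower. With Pam3CSK4 second the lowest were the polyamine enzyme Odc1 (-1.72) and the nucleolar protein gene Nop58 (-1.65). In naive cells 0 of 20 were past 2-fold with either ligand, with medians of 0.01 (MDP) and 0.07 (Pam3CSK4). After MDP pretreatment 19 of 20 were below the matching naive array with either second ligand, 0 past 2-fold. The medians were -0.22 with MDP second and -0.24 with Pam3CSK4 second. Myc itself differed there by -0.10 and -0.26. Within the Myc network of 11 genes Mxd1, which competes with Myc for their partner Max, was 2-fold above unstimulated on 5 of the 6 stimulated arrays. It was at 2.51 in Pam3CSK4 then MDP, 1.37 in naive cells with MDP, 1.87 in Pam3CSK4 then Pam3CSK4, 2.46 in MDP then Pam3CSK4 and 1.87 in naive cells with Pam3CSK4, against 0.59 in MDP then MDP, where 0 of the 11 were past 2-fold. On the 5 arrays 0.583% to 3.03% of all genes were 2-fold higher, and the medians of the 11 genes ran from -0.11 to 0.00. Mxi1, also of that network, went the other way in Pam3CSK4 then MDP, 2-fold below unstimulated (2.59% of all genes).

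Over all genes, 2.27% were 2-fold higher and 1.95% 2-fold lower in naive cells with Pam3CSK4 than unstimulated. Of 15 G1 kinases, E cyclins and pocket proteins cyclin E2, Ccne2, was alone past 2-fold in naive cells with Pam3CSK4, at -1.62 or lower, and 0 were with MDP. In Pam3CSK4 then Pam3CSK4 against naive cells with Pam3CSK4 Ccne2 (at least 2.28) and Ccne1 (1.32) were 2-fold higher (2.41% of all genes). Of 17 other p53 targets Btg2 (1.8), an antiproliferative gene, was 2-fold higher in naive cells with Pam3CSK4, and Trp53inp1 (-1.68) and Sesn1 (-1.67) were 2-fold lower, with a median of -0.36. In that comparison Cdkn1a thus stood with Btg2 and Gadd45a with the lower genes of the list. On both arrays of cells pretreated with Pam3CSK4, where Gadd45a was lowest, 0 of the 17 were 2-fold below unstimulated (2.59% and 2.29% of all genes). Btg2 was 2-fold higher on both (2.78% and 2.66%). Of 10 FOXO targets Bcl2l11, a cell death gene, was 2-fold higher (1.03) and Sesn3 lower (-1.25) in naive cells with Pam3CSK4. Among 7 MAP kinase partners of the Gadd45 proteins Map3k4 alone was past 2-fold in naive cells with Pam3CSK4 (-1.05), and of 5 other kinase inhibitors 0 were. Cdkn3, a phosphatase gene that acts on cyclin-dependent kinases, was 2-fold below unstimulated on both arrays of cells pretreated with Pam3CSK4 (-1.70 with MDP second and -1.80 with Pam3CSK4 second), like the mitotic genes.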

How the data were processed

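The deposited values are log2 expression per probe set on Affymetrix arrays, which the submitters' processing notes credit to RMA and affy. Versions, probe set definitions and the set of arrays normalized together are not given in the sources used here. The 45101 probe sets ran from 2.95 to 15.1, array medians from 5.48 to 5.55, no value was missing, and none was transformed again. Every label carries the replicate number 2, and each group has 1 array, whose number limits the precision.

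Symbols came from the platform table. Control probe sets (64) were left out, 34945 others had 1 symbol and 932 several, and no probe set of the 10 genes had several. The brightest probe set stood for each of 18193 genes. All 10 symbols matched the RefSeq gene table by gene identifier. Differences were taken in 15 comparisons of single arrays; folds are log2 differences put back on the linear scale. A value below its array median was treated as not told from background, and a difference from it is given as a bound unless stated. The genes, lists, comparisons and thresholds were chosen with earlier results of these data known. From the lists, at most the 2 highest and 2 lowest genes past 2-fold are named per comparison. Genes of like pattern are the 3 with the highest Pearson r to each of the 3 members of largest range, among genes with a range of at least 1. Simulated data of 18193 genes in 1 array against 1 served to check the calculation only. All 200 genes given a shift larger than 2-fold and 1 unshifted gene were past 2-fold. The noise was the difference, shuffled over genes, between the 2 arrays of cells pretreated with Pam3CSK4, the closest pair of arrays. The result is therefore no error rate for the calls. Python 3.11.15, numpy 2.4.6, pandas 2.3.3, matplotlib 3.10.9, R 4.3.3 and limma 3.58.1 (cyclic loess) were used.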

Additional observations from a re-analysis of the deposited data

How the results depend on the processing

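No paired analysis was possible because each group has 1 array and all labels carry the same replicate number. The 150 differences of the 10 genes, 46 of them past 2-fold, were recomputed with arrays centred on medians or on housekeeping genes, cyclic loess, probe sets averaged per gene, less specific probe sets left out, an addition of 32 on the linear scale, and, chosen after the data were seen, with the mean of probe sets above the array median on all arrays. None of the 46 changed direction under these settings. Centring on medians moved 0 of the 150 across 2-fold and the housekeeping centring 1. Cyclic loess and the added 32 moved 3 each, and each mean of probe sets 6. The setting on less specific probe sets could move none, as each of the 10 genes kept the probe set of the main analysis. Myc and Gadd45g have 1 probe set each, with names ending in _a_at, and had no other to use. A floor on the brighter array, at its median or its 75th percentile, could not lower any count of the 15 comparisons. The brighter value of each difference past 2-fold lay above both.

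With cyclic loess the count for MDP then MDP against naive MDP was 1 (Gadd45b) in place of 0, and with 32 added that for Pam3CSK4 then MDP against naive MDP was 1 in place of 2. The fold line moved the counts most. At 1.5-fold the counts against unstimulated were 5 for naive MDP, 8 for Pam3CSK4 then MDP and 7 for Pam3CSK4 then Pam3CSK4. For naive Pam3CSK4 the count was 8, beside 6 at 2-fold. MDP then Pam3CSK4 (6) and MDP then MDP (0) kept their counts at 1.5-fold. Against the matching naive array they were 3 for MDP then MDP, 5 for Pam3CSK4 then MDP, 8 for Pam3CSK4 then Pam3CSK4 and 1 for MDP then Pam3CSK4. Between second ligands they were 8 after MDP and 1 after Pam3CSK4, and between pretreatments 7 with MDP second. At 3-fold the counts against unstimulated were 0 for naive MDP, 3 for naive Pam3CSK4, 1 for Pam3CSK4 then MDP, 1 for Pam3CSK4 then Pam3CSK4 and 2 for MDP then Pam3CSK4. Against the matching naive array they were 1 for Pam3CSK4 then MDP and 2 for Pam3CSK4 then Pam3CSK4, between second ligands 2 after MDP, and between pretreatments 1 with each second ligand. Counts of other comparisons at these lines are left out, and they can have moved too. Between second ligands in naive cells, 1 gene was higher and 2 lower at 3-fold, beside 1 and 3 at 2-fold. The share of all genes was not taken at 1.5-fold, and at 3-fold only for naive Pam3CSK4 against unstimulated. The other counts at these lines therefore cannot be set beside such a share. With 1 array per group, variation between cultures is not covered.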
